A study of Mus musculus with 6 samples.

Results

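The reticulon genes Rtn1, Rtn2, Rtn3 and Rtn4 were followed in whole lungs of Nogo-A/B knockout and wild-type mice, together with AK080804, a transcript recorded inside the Rtn4 locus. They were taken as every non-control probe that the array files name Rtn1, Rtn2, Rtn3, Rtn4 or AK080804, which gave 12 of 41174 probes. Rtn4 had 4 of these probes, AK080804 had 1, Rtn1 had 2, Rtn2 had 1 and Rtn3 had 4. The groups were 3 knockout lungs, numbered 1, 11 and 12, and 3 wild-type lungs, numbered 11, 12 and 13, all from untreated (naïve) males aged 8 weeks. The labels give the knockout as a loss of Nogo-A and Nogo-B, and name neither the strain nor the exons removed, so whether a probe lies inside the deleted part is not known here. The series design calls the lungs of a group individual biological replicates. Each lung RNA went to 1 single-colour 60-mer oligonucleotide array, and the 30505 probes that were clearly above background on 3 or more of the 6 arrays were tested.

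Reticulons are membrane proteins that bend and stabilise the tubules of the endoplasmic reticulum through a C-terminal domain that all family members share. Rtn4 makes Nogo-A and Nogo-B from a common start, and the short Nogo-C from an internal start. All of its products end in the same C-terminal exons. Nogo-A is best known as an inhibitor of axon growth in the central nervous system, Nogo-B is abundant in lung epithelium, endothelium and smooth muscle, and Nogo-C is known from skeletal muscle and brain. The table of RefSeq genes (GRCm38) lists 3 starts for Rtn4 on the plus strand of chromosome 11, of which the last lies 25.7 kb after the first.

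The probes of the Rtn4 locus are shown because they read different stretches of the gene. Positions come from the array annotation (mouse build mm7), and all 5 run on the plus strand. Each line gives the probe sequence, and capitals mark the 40 bases that the last 2 probes have in common.
AK047982 (chr11:29649392-29649451): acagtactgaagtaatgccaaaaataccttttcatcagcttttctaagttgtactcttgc
Rtn4 long transcript (chr11:29658879-29658938): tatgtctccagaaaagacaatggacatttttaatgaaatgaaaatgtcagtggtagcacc
AK080804 (chr11:29664271-29664330): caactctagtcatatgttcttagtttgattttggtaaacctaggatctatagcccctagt
Rtn4 shared exons 1 (chr11:29693516-29693723): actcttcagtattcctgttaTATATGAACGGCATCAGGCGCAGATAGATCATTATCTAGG
Rtn4 shared exons 2 (chr11:29693536-29694301): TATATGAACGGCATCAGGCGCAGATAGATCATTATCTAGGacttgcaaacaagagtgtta

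The shared-exon probes are assigned in the array files to 4 RefSeq transcripts of Rtn4, so neither singles out a Nogo product. Their 60 bases cover 208 and 766 bases of the genome, as a probe across an exon junction does. With 40 bases in common they are not separate evidence. The long-transcript probe carries only 2 of those 4 accessions, among them NM_194054, RefSeq's record of the long Nogo-A type transcript. The AK047982 probe is named Rtn4 on the array and stands for a RIKEN clone, C130026I10, that the table of RefSeq genes lists as a synonym of Rtn4. It lies 44.1 kb before the first shared-exon probe, the long-transcript probe 34.6 kb and the AK080804 probe 29.2 kb before it. The files do not say whether AK047982 or AK080804 is exonic or intronic. No other non-control probe lay between the outermost Rtn4 probes.

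As a check of the tissue, all 9 lung markers were well above background on every array, among them the surfactant gene Sftpc and the club cell gene Scgb1a1. Between 71.3% and 78.0% of probes were well above background on the knockout arrays, and between 68.9% and 77.3% on the wild-type arrays. Scans fell on 2 days: knockout 1, knockout 11 and wild type 13 were scanned on day 1, the other 3 arrays on day 2. Knockout 1 and wild type 13 shared slide 1, and knockout 11 was on slide 2. Slide 3 held the arrays of day 2. In each genotype the slide 1 array had the highest share of probes well above background. Values below are log2 signals relative to the 75th percentile of the same array, which allow a probe to be compared between lungs but not with another probe. Precision is limited by having 3 arrays a group.

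The first comparison asks what the knockout left of the Rtn4 locus. Of the 12 probes 10 were tested. At an unadjusted p under 0.05, the 2 shared-exon probes, which overlap and count as 1 signal, were lower in the knockout. The background was 0.557% of all tested probes. AK047982 and AK080804 are left out of this count. Each was tested only because it was well above background in all 3 wild-type lungs, and AK080804 was also chosen for its small p. At the AK047982 end of the locus the signal was at background in all knockout lungs and plainly measured in all wild-type lungs. The AK047982 probe gave a scanner signal of 8.06 ± 4.41 in knockout 1, 4.64 ± 4.64 in knockout 11 and 3.48 ± 3.46 in knockout 12 (± the error the scanner software assigns to the spot). In the wild type the signal was 199.6 ± 20.7 in lung 11, 285.9 ± 29.3 in lung 12 and 485.7 ± 48.9 in lung 13. The groups did not overlap, as for 1.53% of all tested probes in this direction and 2.34% in the other. In no knockout lung did the probe count as well above background.

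On the log2 scale AK047982 averaged -8.34 ± 0.21 in the knockout and -2.82 ± 0.41 in the wild type (SD, n = 3 each). In knockout 11 and knockout 12 the scanner software had set the signal to a surrogate, so this knockout SD in part describes a floor. AK047982 was at least 14.2-fold lower in knockout lungs. This bound sets the wild-type mean against, on each knockout array, the lowest signal of any probe well above background there. Of the 30505 probes tested, 0.00656% passed the adjusted threshold of 0.05, which was 2 probes, both lower in the knockout. AK047982 was the first of them by p, and AK080804, chosen for its small p in these data, was the other. Both were tested only because all 3 wild-type arrays were well above background. Their calls therefore describe the values and are not separate support for a loss. AK080804 was past the threshold in 2 of 19 alternative settings, with scan day or slide as a block, and missed it, or was not tested, in the others, which include each fit with 1 array left out. AK047982 passed in 9 of the 19, missed in 8 and was not tested in the rest. The bound was at least 4.21-fold after normexp background correction and 4.87-fold on the authors' own values (which follow the signal before background subtraction). The call was lost when wild type 11, wild type 12, knockout 1, knockout 11 or knockout 12 was left out, with an adjusted p between 0.115 and 0.296, and remained without wild type 13 at 0.0368. The fitted difference over all lungs was -5.52 (SE 0.26, limma adjusted p 0.0173), which is no measured fold because the knockout lay at background. It was -5.97 on day 1 alone, -5.31 on day 2 alone and -5.64 in a fit with scan day as a block, where the call held (adjusted p 0.0240).

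AK080804, 14.9 kb further along the plus strand, was picked out in an earlier look at these arrays for its small p, so its values are a description. It measured -9.11 in knockout 1, -8.62 in knockout 11 and -8.52 in knockout 12, none of them well above background and all surrogate values. The wild-type values were -3.67 in lung 11, -3.28 in lung 12 and -4.28 in lung 13, all well above background. It was lower in knockout lungs by at least 7.50-fold, or by 2.80-fold after normexp correction and 3.15-fold on the authors' values. Its fitted difference was -4.59 on day 1 alone and -5.05 on day 2 alone.

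The long-transcript probe, the one closest to Nogo-A, was hardly measured in lung of either genotype. All 3 knockout lungs were at background, at -9.27, -8.81 and -7.35 in knockout 1, 11 and 12. In the wild type it was well above background in lung 13 alone, at -5.36, and measured -8.56 and -7.21 in lungs 11 and 12. It was not tested and gives no fold, so these arrays set no size on the difference in the Nogo-A type transcript.

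The shared C-terminal exons gave another picture, since their signal was well above background in all 3 knockout lungs. The first shared-exon probe measured 1.01 in knockout 1, -0.78 in knockout 11 and -1.87 in knockout 12. The wild-type lungs measured 1.59 in lung 11, 1.53 in lung 12 and 2.28 in lung 13. Every knockout value lay below every wild-type value, by 0.51 at the nearest point, as for 1.53% of all tested probes, while 2.34% were separate in the other direction. Relative to the wild-type geometric mean, the signal was 57.9% in knockout 1, 16.7% in knockout 11 and 7.86% in knockout 12. The scanner signal was 313.9 ± 31.5 even in knockout 12, far above the assigned spot error.

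The knockout lungs were therefore much less alike than the wild-type lungs at this probe, with 7.37-fold between the highest and the lowest knockout lung and 1.68-fold between wild-type lungs. The mean was -0.55 ± 1.46 in the knockout and 1.80 ± 0.42 in the wild type (SD, n = 3 each). The log2 difference was -2.35 (SE 0.72), which leaves 19.7% of the wild-type signal with a 95% interval from 5.83% to 66.3%. Its limma p was 0.0167 before and 0.9999 after adjustment over all probes, so it did not pass. With scan day fitted as a block the difference was -2.80. It was -2.16 on day 1, which held 1 wild-type lung, and -3.43 on day 2, which held 1 knockout lung. The overlapping probe gave 0.995, -0.57 and -2.04 in knockout 1, 11 and 12, against 1.56, 1.38 and 2.28 in wild type 11, 12 and 13. Its difference was -2.28 (SE 0.76). On day 1 alone it was -2.07, on day 2 alone -3.51, and with the block -2.79. The size rested on which knockout lungs were included. Without knockout 12 the difference was -1.69 (SE 0.59), with 31.1% of the wild-type signal left, and -1.53 (SE 0.55), with 34.6% left, at the overlapping probe. Without wild type 13 the first probe gave -2.11 at an unadjusted limma p of 0.0547, and without knockout 11 it gave -2.23 at 0.0523, neither under 0.05.

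Knockout 1, the knockout lung with the most shared-exon signal, also stood apart in genes of skeletal muscle, the tissue known for Nogo-C. All 8 skeletal muscle markers were highest in this lung, among them the fast myosin Myh4, the sarcomeric actin Acta1 and the muscle creatine kinase Ckm. Acta1 measured 6.17 in knockout 1, -0.66 in knockout 11 and -2.99 in knockout 12. The summed skeletal muscle signal, in units of the 75th percentile of the array, was 522.7 in knockout 1, 6.38 in knockout 11 and 1.16 in knockout 12. In the wild type it was 1.79 in lung 11, 10.3 in lung 12 and 5.96 in lung 13. Knockout 1 was thus 51.0-fold above the next lung. In knockout 12 the muscle genes Ckm, Myh1 and Myh2 were not well above background, and in the other 5 lungs all 8 markers were.

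The order of the 3 knockout lungs by skeletal muscle signal was the same as their order by Rtn4 shared-exon signal. The wild-type lungs did not share it, since lung 12 was highest in skeletal muscle signal and lowest in Rtn4. Smooth muscle markers summed to 63.0, 58.9 and 17.3 in knockout 1, 11 and 12, and to 23.7, 21.8 and 48.6 in wild type 11, 12 and 13. Within each genotype this was also the order of the lungs by Rtn4 shared-exon signal, so the match was not particular to skeletal muscle. Cardiac muscle markers summed to 18.6, 62.5 and 3.23 in knockout 1, 11 and 12, and to 8.01, 8.30 and 59.4 in wild type 11, 12 and 13. Smooth and cardiac muscle sums were each higher in every lung of day 1 than in every lung of day 2, whatever the genotype. Wild type 13, the wild-type lung with the most Rtn4 signal, was also the wild-type lung highest in smooth and cardiac muscle genes, while among knockout lungs cardiac signal was highest in knockout 11. Wild type 13 shared its scan day with knockout 1 and knockout 11, and its slide with knockout 1 alone. Both lungs of that slide had the most shared-exon signal of their genotype. The part of muscle content, slide and scan day in the spread of Rtn4 was not tested. Without knockout 1 the difference of the first shared-exon probe was -3.13 (SE 0.43), with 11.4% of the wild-type signal left and an interval from 5.32% to 24.6%. The overlapping probe gave -3.05 (SE 0.53) without that lung. In whole lung, fewer cells of a type and less RNA per cell cannot be told apart.

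The second comparison asks whether the other reticulons differed in the Nogo-A/B knockout. With all lungs included, none of their 6 tested probes reached an unadjusted p under 0.05 in limma, where 0.862% of all tested probes did in either direction. The median log2 difference of these 6 probes was 0.17, and that of all tested probes was 0.024. The intervals leave room for differences in either direction, and at Rtn2 and the probe of the long Rtn3 transcripts for large rises. The family is therefore described member by member.

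Rtn3, which takes part in tubule shaping and in the selective autophagy of the endoplasmic reticulum, had 1 probe that was even across lungs and others that were less so. Its probe common to 4 RefSeq transcripts (chr19:7245831-7245890) measured 3.20, 3.43 and 3.63 in knockout 1, 11 and 12, and 3.48, 3.44 and 3.10 in wild type 11, 12 and 13. The groups overlapped. The difference was 0.08 (SE 0.20), with a 95% interval from 75% to 148.8% of the wild-type signal and an adjusted p of 0.9999.

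A neighbouring Rtn3 probe that spans 476 bases of the genome (chr19:7251896-7252371) measured 0.47, 0.99 and 0.20 in knockout 1, 11 and 12, and 0.46, 0.29 and 0.62 in wild type 11, 12 and 13. Its groups overlapped as well. Its difference was 0.10 (SE 0.25), with an interval from 70.2% to 163.0%. Taking scan day as a block, the 2 probes gave 0.19 and -0.032, and without knockout 1 they gave 0.19 and 0.14.

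The probe of the long Rtn3 transcripts (chr19:7276591-7276650), which carries 2 of those 4 accessions, was dim. It measured -3.71, -4.41 and -5.53 in knockout 1, 11 and 12. In the wild type it measured -5.84 in lung 12, -3.94 in lung 13 and -6.51 in lung 11, where it was not well above background. The difference was 0.88 (SE 0.77) over all lungs, with an interval from 50.4% to 670.9% of the wild-type signal. The difference was 0.26 with the day block and -0.12 on day 1 alone. It was 0.34 without wild type 11, 0.46 without knockout 1 and 1.62 without wild type 13, where the unadjusted limma p was 0.0372 and the adjusted p 0.615. All 3 lungs of day 1 were higher than all 3 lungs of day 2, whatever their genotype. The last Rtn3 probe, for the clone AK054345 (chr19:7278823-7278882), lay between -8.38 and -6.95 and was at background in all 6 lungs.

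Rtn1, a reticulon of neurons and neuroendocrine cells, had 2 probes on chromosome 12 that lie 272 bases apart and gave differences of opposite sign. The first (chr12:70161926-70161985) measured 0.92, 0.38 and -0.39 in knockout 1, 11 and 12, and -0.13, -0.11 and 0.43 in wild type 11, 12 and 13. The second (chr12:70161594-70161653) measured -1.89, -2.86 and -1.62 in the knockout lungs, and -1.49, -1.62 and -2.07 in the wild-type lungs. Groups overlapped at both probes.

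The Rtn1 differences were 0.24 (SE 0.37) and -0.40 (SE 0.37), with intervals from 63.2% to 221.7% and from 40.9% to 141.2% of the wild-type signal. With scan day as a block they were -0.022 and -0.18. Without knockout 1, where the first probe was highest, they were -0.066 and -0.51. Neuronal and neuroendocrine markers, at sums of 2.45, 2.53 and 3.18 in knockout 1, 11 and 12 and 2.53, 2.86 and 2.53 in wild type 11, 12 and 13, were lowest in knockout 1.

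Rtn2, described on the array as a Z-band associated protein (the Z-band anchors the thin filaments of striated muscle), was even across 5 lungs and high in 1. Its probe (chr7:16978286-16978345) measured 1.60 in knockout 1, -0.33 in knockout 11 and -0.63 in knockout 12. The wild-type lungs measured -0.39 in lung 11, -0.40 in lung 12 and -0.27 in lung 13. The wild-type SD was 0.07 and the knockout SD 1.21, since knockout 1 stood at 386.5% of the wild-type geometric mean. The difference was 0.57 (SE 0.58), with an interval from 55.4% to 395.8%, and 0.33 with the day block. Without knockout 1 it was -0.13 (SE 0.20), from 64.3% to 130.5%, so the positive value rested on the lung rich in skeletal muscle genes.

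Partners of the reticulons were read from a list of 27 genes for Nogo receptors and co-receptors, their ligands, other tubular endoplasmic reticulum proteins and reported binding partners. Of these, 26 were tested, at 1 probe a gene. The gene without a tested probe was Rtn4r, a Nogo receptor, so nothing is said here of its level. Their median log2 difference was -0.017, and that of all 20241 genes at 1 probe each was 0.02. At an unadjusted p under 0.05, 1 gene was lower and 0 were higher, against 0.904% of all genes in either direction, and 0 passed after adjustment over all probes.

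That gene was Omg, a myelin glycoprotein that binds the Nogo receptor. Omg measured -5.81, -6.61 and -6.01 in knockout 1, 11 and 12, and -5.17, -5.17 and -5.66 in wild type 11, 12 and 13. Omg was not well above background in knockout 11, so its difference includes a value at background. The Omg difference was -0.81 (SE 0.28), with a limma p of 0.0253, or 0.9999 once adjusted. Over the list the differences ranged from that of Omg to 0.39 for Reep4, of the REEP family of endoplasmic reticulum proteins.

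The genes with a profile over the 6 lungs most like the first shared-exon probe were sought among 15981 genes, by the root mean square difference of centred log2 values. They were Cldn22, at a distance of 0.61, Syngr4 at 0.67, Cyp4a12a at 0.73, Cdh26 at 0.85 and Erich5 at 0.85, where the median gene lay at 1.52. All 5 were lower in the knockout, which follows from the profile they were matched to. Cldn22, a claudin, measured -5.77, -6.21 and -7.04 in knockout 1, 11 and 12, and -3.21, -3.92 and -3.37 in wild type 11, 12 and 13. In the knockout, 1 of 3 arrays measured Cldn22 above background, 2 measured Syngr4 and 1 measured Erich5, so part of these profiles is background.

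Markers of immune cells that could vary between lungs gave neutrophil sums of 63.0, 182.5 and 42.5 in knockout 1, 11 and 12, and 285.5, 186.5 and 80.8 in wild type 11, 12 and 13. Macrophage and monocyte markers, of which 4 of 5 were on the array, summed to 9.58, 10.7 and 17.9 in knockout 1, 11 and 12, and to 17.0, 18.3 and 8.23 in wild type 11, 12 and 13. The macrophage and monocyte sum was lower in every lung of scan day 1 than in every lung of scan day 2, whatever the genotype. The lung marker sums were 787.5, 874.3 and 1083 in knockout 1, 11 and 12, and 838.2, 656.7 and 732.9 in wild type 11, 12 and 13. The part of these cell types in the reticulon values was not tested.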

How the data were processed

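RNA of each of 6 lungs was labelled with Cy3 for 1 Agilent mouse array, per the labels. The deposited scanner files hold an intensity per spot, and their headers name Feature Extraction 9.5.1.1, where the submitters' processing notes name 9.1. Per the file headers the software subtracted background, detrended the signal and set low values to a surrogate. It did not scale arrays to each other. The authors' value table holds log2 intensities with column medians between 8.087 and 8.090, and no source used here gives the scaling.

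Control and outlier spots were removed and replicate spots averaged. This dropped 30 probes, none of them a reticulon probe. Processed signals were divided by each array's 75th percentile over non-control spots (1146 to 2481) before log2. Probes clearly above background on 3 or more of 6 arrays entered a two-sided limma fit (version 3.58.1, R 4.3.3) by lmFit and eBayes without covariates, with Benjamini-Hochberg adjustment over 30505 probes. The test was also run on simulated data with independent noise at each probe. Those data held no scan day, slide or background floor, so that run does not bear on these. Current symbols came from RefSeq (GRCm38) for 32709 probes. A list gene was read from its brightest probe. Marker sums add the linear signals of such probes. Alternatives were other scalings, normexp with an offset of 50, the authors' values, other filters, scan day, slide and replicate number as blocks, and each array left out. The members, lists and tests were chosen with earlier results of these data known. The named genes were the members, list genes at an unadjusted p under 0.05 and the 5 nearest profiles. Reep4, as the end of the list's range, and the muscle genes were named after their values were seen.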

Additional observations from a re-analysis of the deposited data

How the results depend on the processing

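Over 19 alternatives, the log2 difference of the first Rtn4 shared-exon probe stayed negative, between -3.43 and -1.69, and its adjusted p was 0.191 or above. The overlapping probe was also negative in all 18 alternatives that tested it. The AK047982 probe stayed negative in each fit that tested it, and its call was lost within scan day 1 (-5.97), within scan day 2 (-5.31) and with the replicate block (-5.39), fits of 3 or 4 arrays. With 1 array left out it ranged from -5.67 to -5.28. The number of probes past the adjusted threshold was 2 over all lungs. It was 1 with quantile normalization, 1 without a filter on dim probes, 0 among probes well above background on all 6 arrays (which leaves out AK047982 and AK080804), and 0 with 1 probe a gene (which leaves out AK047982). It was 0 on either scan day alone, 0 with the replicate block, 5 where slide was a random block, and from 0 to 1 with 1 array left out. Bpifa1 was called in 6 of the 19 alternatives: with AK047982 in 4 whose count was also 2 (normexp, median scaling, the authors' values and trended variance), with Cyp4a12a and Fry under the slide block, and as the 1 call without knockout 1. AK047982 was among the called probes in 9 of the 19 alternatives, lost its call in 8 and was not tested in the rest. AK080804 was called in 2. Both were tested through the wild-type arrays alone, so these counts show how far the calls depend on the settings and are not separate support.

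The bound of AK047982 was 4.21-fold after normexp correction and 4.87-fold on the authors' values, and that of AK080804 was 2.80-fold and 3.15-fold. With 1 array left out they ranged from 12.1 to 15.8 and from 6.38 to 9.03. For Rtn1, Rtn2 and Rtn3 no alternative made a call, with a lowest adjusted p of 0.321 over 111 fits, and differences changed sign at 5 of the 6 probes, Rtn2 and the long-transcript Rtn3 probe included. With day as a block the first Rtn1 probe was -0.022, on day 2 alone -0.27, and it ranged from -0.066 to 0.59 with 1 array left out. Rtn2 was -0.24 within day 2 and -0.085 with the replicate block, and ranged from -0.13 to 0.99. The first Rtn3 probe ranged from -0.042 to 0.19 with 1 array left out. For the second, the day block gave -0.032, day 2 alone -0.17 and the slide block -0.077, and it ranged from -0.12 to 0.27. The long-transcript Rtn3 probe was -0.12 within day 1, and ranged from 0.34 to 1.62 with 1 array left out. The cause of these sign changes was not tested.

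The replicate block used the 4 lungs whose numbers, 11 and 12, occur in both genotypes. Lungs of the same number deviated from their group means with correlations across probes of -0.30 for number 11 and 0.47 for number 12. The lungs numbered 12 shared slide and scan day, and those numbered 11 shared neither. These correlations therefore cannot tell whether the numbers pair mice, and no pairing is assumed.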
